A study of Homo sapiens with 2 samples.

Results

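The 38 HOX genes described here belong to the HOXA, HOXB, HOXC and HOXD clusters (10, 10, 9 and 9 listed genes). They were chosen by name and not by any measured value, from 20037 protein-coding genes in the RefSeq table (GRCh38.p14), and all 38 were found there. PHF8 occupancy was read from chromatin immunoprecipitation followed by sequencing (ChIP-seq) with an antibody against PHF8 in RKO cells, a long-established line from a human colon carcinoma. One group had been transfected with the vector and the other with an APOC2 overexpression plasmid (APOC2 encodes an apolipoprotein), and the labels give no other difference between the groups. Each group had 1 library and 1 peak table, so there was no replicate check, no test between the libraries was possible, and all intervals below cover counting error only. A gene was called occupied when the midpoint of a peak lay within 1 kb of its annotated start or end.

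HOX genes encode homeodomain transcription factors that give cells their position along the body axis, and the order of the genes in a cluster follows the order in which they act along that axis. Their promoters are rich in CpG dinucleotides and are known targets of Polycomb repression, while trithorax proteins keep them active. PHF8 is a histone demethylase that removes repressive methyl marks from histone H3, and its PHD finger binds trimethylated lysine 4 of that histone, a mark of active promoters. The series asked whether APOC2 raises the binding of PHF8 to chromatin.

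PHF8 peaks were nearly absent from the starts and ends of the HOX genes in both libraries. In the vector library 0 of the 38 genes were occupied, and 5.95% of all protein-coding genes were. The 95% Wilson interval of 0 of 38 reaches 9.18%, and the simpler limit of 3 counts for a count of 0 gives 7.89%. In the APOC2 library 1 gene, HOXD9, was occupied (2.63%, 95% Wilson interval 0.466 to 13.5%), beside 23.8% of all protein-coding genes (23.3 to 24.4%). HOXD9 was occupied in the APOC2 library alone, as were 18.0% of protein-coding genes. No HOX gene was occupied in the vector library alone, beside 0.105% of protein-coding genes. The other 37 HOX genes were occupied in neither library, beside 76.0% of protein-coding genes. The vector share of protein-coding genes lay within the Wilson interval of the HOX share, so the HOX genes could not be told apart from other genes there. In the APOC2 library the intervals of the HOX share and of all protein-coding genes did not overlap. When the peak itself had to overlap a start or end they did: the HOX share was then 0 of 38 (0 to 9.18%), beside 8.55% of protein-coding genes (8.17 to 8.94%). Neighbouring HOX genes are not independent, and HOXC4, HOXC5 and HOXC6 share their lower annotated end, so these intervals are narrower than the data warrant.

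The sequences shown beside this contrast are the stretches just before the starts of genes in and next to the HOXD cluster and next to the HOXB cluster. The 250 bases before the annotated start (RefSeq, GRCh38.p14) are shown 5′ to 3′ with each CpG in capitals. HOXD10 and HOXD8 flank HOXD9 on either side and had no peak within 1 kb. HOXD10 is at chr2:176116528-176116777 on the plus strand and HOXD8 at chr2:176129455-176129704 on the plus strand. LNPK and MTX2, the protein-coding genes at the nearest APOC2 peaks outside the HOXD cluster, and CALCOCO2, the one above the HOXB cluster, were occupied in the APOC2 library. They were picked for display after their values had been seen. LNPK is at chr2:176002268-176002517 on the minus strand, MTX2 at chr2:176269192-176269441 on the plus strand and CALCOCO2 at chr17:48830785-48831034 on the plus strand. No sequence of HOXD9 is printed.
HOXD10: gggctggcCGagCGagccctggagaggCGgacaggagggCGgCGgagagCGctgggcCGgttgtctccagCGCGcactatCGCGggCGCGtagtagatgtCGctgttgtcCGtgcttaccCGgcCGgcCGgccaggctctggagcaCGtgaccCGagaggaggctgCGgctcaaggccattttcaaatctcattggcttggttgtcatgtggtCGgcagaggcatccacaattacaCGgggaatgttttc
HOXD8: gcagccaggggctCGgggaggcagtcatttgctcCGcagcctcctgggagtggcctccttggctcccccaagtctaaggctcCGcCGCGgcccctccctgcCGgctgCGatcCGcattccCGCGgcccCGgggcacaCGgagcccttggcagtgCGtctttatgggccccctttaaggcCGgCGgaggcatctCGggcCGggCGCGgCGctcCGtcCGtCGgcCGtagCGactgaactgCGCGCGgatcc
LNPK: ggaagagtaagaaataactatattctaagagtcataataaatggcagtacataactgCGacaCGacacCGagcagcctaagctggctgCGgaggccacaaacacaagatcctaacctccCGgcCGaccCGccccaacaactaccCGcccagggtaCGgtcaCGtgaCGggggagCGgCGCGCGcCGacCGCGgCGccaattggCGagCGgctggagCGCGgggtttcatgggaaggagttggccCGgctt
MTX2: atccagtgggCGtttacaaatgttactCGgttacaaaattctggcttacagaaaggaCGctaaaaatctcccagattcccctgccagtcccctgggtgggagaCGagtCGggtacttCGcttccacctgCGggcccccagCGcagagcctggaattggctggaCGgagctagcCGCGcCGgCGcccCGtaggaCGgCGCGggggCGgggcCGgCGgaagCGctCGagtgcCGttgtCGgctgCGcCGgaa
CALCOCO2: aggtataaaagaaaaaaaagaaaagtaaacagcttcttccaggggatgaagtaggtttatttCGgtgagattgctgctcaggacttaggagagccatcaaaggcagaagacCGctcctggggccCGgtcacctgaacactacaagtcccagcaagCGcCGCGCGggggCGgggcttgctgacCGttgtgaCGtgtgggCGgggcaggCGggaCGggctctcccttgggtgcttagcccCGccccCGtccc
The stretches of the unoccupied HOXD10 and HOXD8 held 23 and 28 CpG (CG, which reads the same on both strands), and those of the occupied LNPK, MTX2 and CALCOCO2 held 24, 26 and 15. Of 22199 such windows of protein-coding genes, 96.8% held at least 1 CpG, and the median was 16 (quartiles 5 and 25). All but CALCOCO2 therefore lay above the median, whether or not the gene was occupied. The peaks of LNPK, MTX2 and CALCOCO2 began 12, 14 and 25 bases after the start, so the counted bases did not lie under them. For LNPK the annotated start nearest to the peak was used. It is at 176002267, inside the gene, whose upper end is at 176002820. CpG content over the whole HOX list was not tested, because 20 of the 38 genes (52.6%) had a sequence in the table and the check would need 80%.

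**Figure D1:**
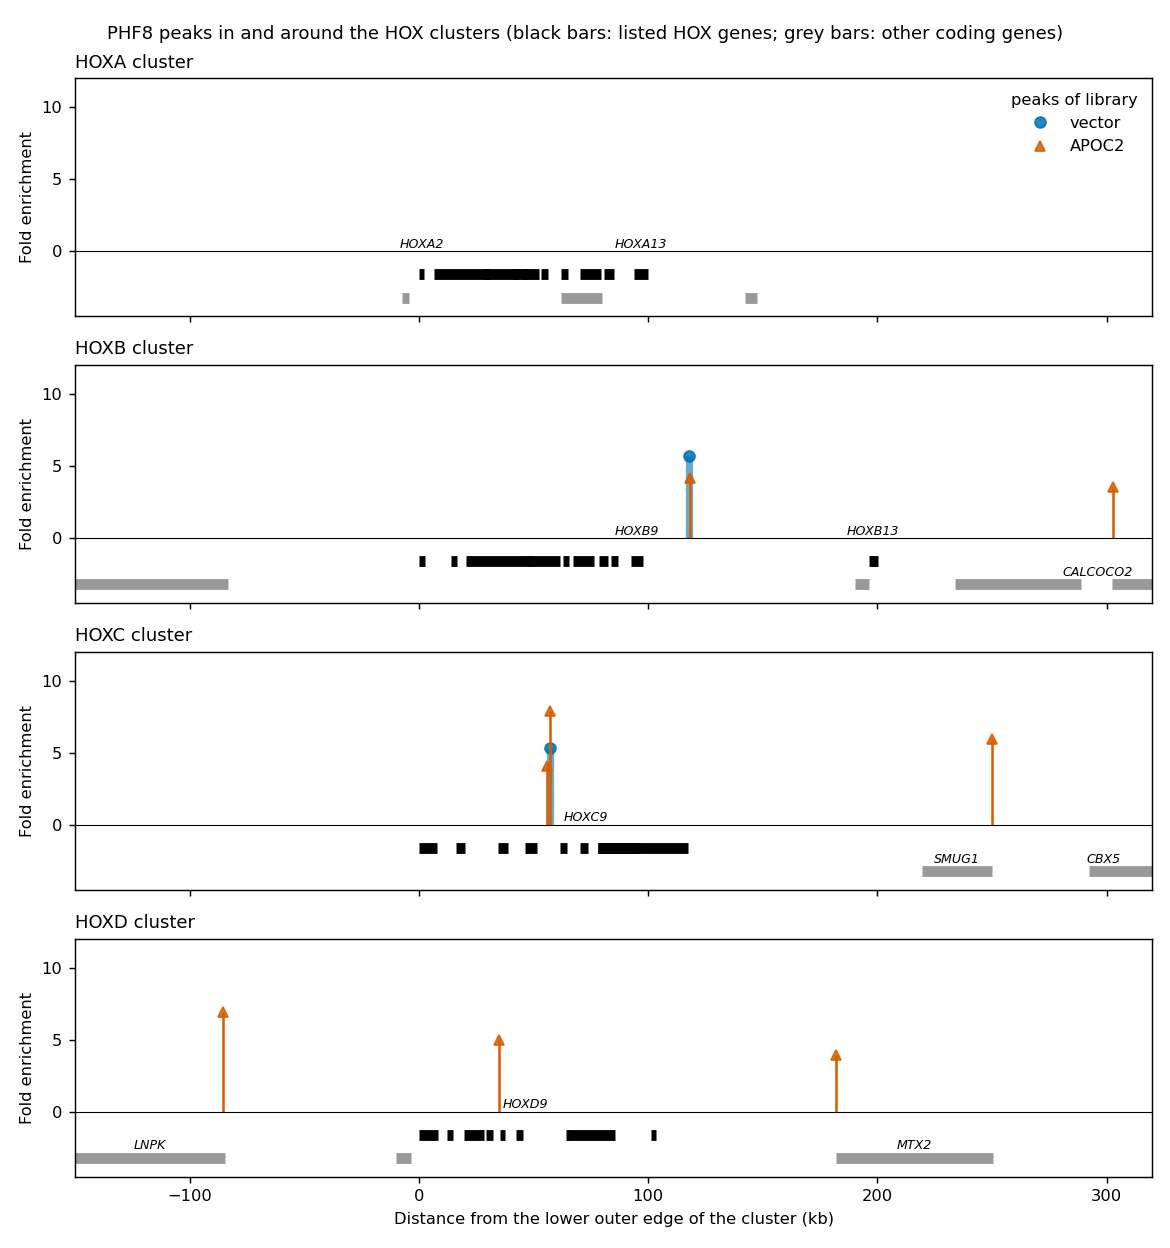
Fold enrichment of each PHF8 peak (stems; circles for vector, triangles for APOC2) against distance in kb from the lower outer edge of each HOX cluster. Black bars mark the listed HOX genes and grey bars other protein-coding genes. The HOXA panel holds no peak, the HOXB panel has 1 peak of each library between HOXB9 and HOXB13, the HOXC panel has 1 vector and 2 APOC2 peaks between HOXC10 and HOXC9, and the HOXD panel has 1 APOC2 peak at HOXD9.

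Between the outer genes of the 4 clusters, 521 kb in all, there were 2 vector and 4 APOC2 peaks. The ratio of 2 had an exact 95% interval of 0.287 to 22.1, which holds the ratio of 2.22 over all peaks of the tables (8928 against 4015). Of these 6 peaks, 1 lay at a HOX gene and 5 lay in the intervals between HOX genes, on or beside long noncoding RNA genes. The peak tables give a summit pileup (fragments covering the highest point), a fold enrichment over the local background and a q-value for each peak, all as the authors deposited them. The vector pileups had been scaled by 0.98953, and dividing by that step gave whole fragments.

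HOXD9 belongs to paralogue group 9, whose genes act in posterior axial and limb patterning. Its gene lies at chromosome 2, 176122719 to 176124937. The APOC2 peak at it ran from 176122363 to 176122684, was 322 bp long and ended 35 bp before the gene's lower end. Its midpoint was 195.5 bp outside the gene, whereas 69.0% of the pairs of an APOC2 peak and an occupied protein-coding gene had the midpoint inside the gene (67.7 to 70.2%, 5322 pairs). The pileup was 14 fragments (95% Poisson interval 7.65 to 23.5) over a background of 1.996, with fold enrichment 5.01 and -log10 q 5.15. Among 4421 APOC2 peaks at protein-coding gene boundaries, this fold enrichment exceeded 44.1% and this -log10 q 13.9%, so the peak was of middling enrichment and low height. The background was low, and 5.45% of those peaks had a pileup of 14 or less. When as many APOC2 as vector peaks were kept, ranked by -log10 p, this peak was not among the 4015, and 0 HOX genes were then occupied in either library, beside 12.5% of protein-coding genes in the APOC2 library. The peak did not overlap the gene, so HOXD9 was also lost when overlap with a start or end was required.

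The vector table had no peak at HOXD9, and the nearest one was 2326 kb away. Scaled to the depth of the control by the step of 0.8325 found in the APOC2 backgrounds, the HOXD9 pileup was 16.8. Of the vector peaks at protein-coding gene boundaries, 60 (5.70%) had a pileup no higher than that. The scaling assumes a control common to both libraries. A call also depends on the local background, which is not known at HOXD9 in the vector library. Signal at HOXD9 below the authors' threshold in the vector library was not detectable from a peak list.

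The other 8 HOXD genes had no peak. HOXD10 and HOXD11, which like HOXD9 belong to the posterior part of the cluster, had their nearest APOC2 midpoint 2.59 and 6.84 kb away, and HOXD8 7.18 kb away. In each case this was the peak at HOXD9. HOXD12 and HOXD13, the genes of the distal limb and genital tubercle, lay 20.03 and 26.6 kb from it, HOXD4 and HOXD3 29.0 and 30.0 kb, and HOXD1 66.1 kb. In the vector library no peak lay nearer than 2260.1 kb to any HOXD gene. Outside the cluster the nearest APOC2 peaks were at LNPK, which encodes the endoplasmic reticulum protein lunapark, 85.2 kb below, and at MTX2, a metaxin of the mitochondrial outer membrane, 78.5 kb above. The LNPK peak had 36 fragments and a fold enrichment of 6.91, and the MTX2 peak 26 fragments and 3.95. They covered bases 12 to 253 and 14 to 237 after the nearest annotated start of the gene, respectively. The vector table had no peak at either gene.

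**Figure D2:**
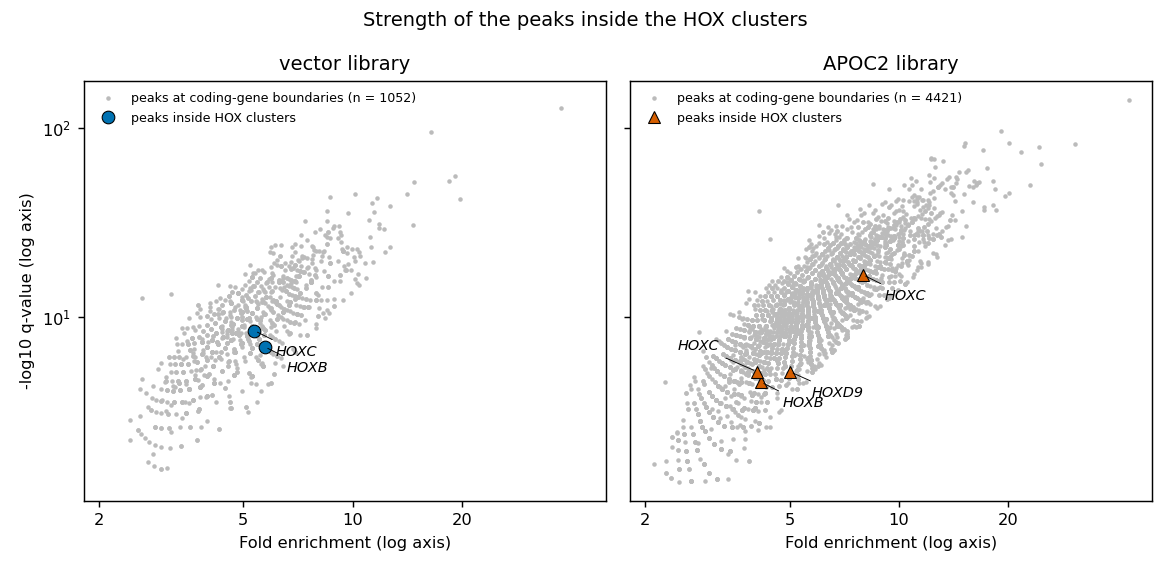
Fold enrichment (log axis) against -log10 q (log axis) of the peaks inside the HOX clusters (circles for vector, triangles for APOC2) over all peaks at protein-coding gene boundaries of the same table (grey, 1052 vector and 4421 APOC2 peaks). The upper HOXC peak of the APOC2 library stands at 7.94 and 16.8, and the 3 other APOC2 peaks lie between 4.07 and 5.01 in fold enrichment with -log10 q of 4.55 to 5.15.

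In the HOXC cluster (chromosome 12, 53938831 to 54056030), peaks of both libraries lay between HOXC10 and HOXC9. The vector peak ran from 53995673 to 53995961 and had a pileup of 24.74, that is, 25 fragments (16.2 to 36.9), with fold enrichment 5.35 and -log10 q 8.51. The APOC2 peak over the same place ran from 53995558 to 53996092 and had 30 fragments (20.2 to 42.8), with fold enrichment 7.94 and -log10 q 16.8. The vector peak lay wholly within it, and the summits were 118 bp apart. On the log2 scale the fold enrichment was higher by 0.57 in the APOC2 library. With pileups scaled to the control depth (36.0 against 24.7) the log2 difference was 0.54, with an exact counting interval of -0.27 to 1.37, so it was within counting error.

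Both of these HOXC peaks lay inside HOXC-AS2, a long noncoding RNA gene (53995208 to 53996785) in the interval between HOXC10 and HOXC9. HOXC-AS2 counted as occupied in both libraries. A smaller APOC2 peak lay 532 bp below, outside HOXC-AS2, from 53994799 to 53995025, with 20 fragments (12.2 to 30.9), fold enrichment 4.07 and -log10 q 5.15. It had no vector counterpart. Compared with the APOC2 peaks at protein-coding gene boundaries, the larger peak exceeded 85.8% in fold enrichment and 79.5% in -log10 q, and the smaller one 21.0% and 13.4%.

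None of the 9 HOXC genes was within 1 kb of these peaks. HOXC9, a posterior gene, was nearest, with midpoints 4.34 kb from its lower end in both libraries. HOXC10, which is known from lumbar and hindlimb patterning, was 5.54 kb from the vector peak and 4.63 kb from the smaller APOC2 peak. HOXC8 lay 13.2 kb away in both libraries, and HOXC4, HOXC5 and HOXC6 21.1 kb away. HOXC11, HOXC12 and HOXC13, the last of these a gene of hair and nail formation, lay 17.3, 36.0 and 48.4 kb from the nearest APOC2 peak and 18.2, 36.9 and 49.3 kb from the vector peak. Above the cluster the next APOC2 peak was 133 kb away at SMUG1, a uracil-DNA glycosylase, and the next vector peak 1761.4 kb away at SARNP.

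In the HOXB cluster (chromosome 17, 48528526 to 48728750), 1 peak of each library lay in the long interval between HOXB9 and HOXB13. The vector peak ran from 48646212 to 48646467 with a pileup of 18.8, or 19 fragments (11.4 to 29.7), with fold enrichment 5.72 and -log10 q 6.98. The APOC2 peak ran from 48646553 to 48646842 with 17 fragments (9.90 to 27.2), fold enrichment 4.16 and -log10 q 4.55. The peaks did not overlap: 85 bp separated them and their summits were 246 bp apart. Both lay in the overlap of the long noncoding RNA genes LINC03057 and LINC02086, within 1 kb of an end of LINC03057. Set side by side, the depth-scaled pileups were 18.8 and 20.4, with a log2 ratio of 0.12 (-0.91 to 1.14), whereas for fold enrichment the log2 ratio was -0.46.

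All 10 HOXB genes were far from these peaks. HOXB9 was nearest, 19.98 kb from the vector peak and 20.3 kb from the APOC2 peak. HOXB8, HOXB7, HOXB6 and HOXB5 lay between 31.0 and 52.9 kb away. HOXB3 and HOXB4, which are known for roles in blood progenitors, lay between 56.1 and 68.3 kb away. HOXB13, the posterior gene known from prostate and distal colon, lay 78.4 kb from the vector and 78.1 kb from the APOC2 peak. HOXB2 and HOXB1, genes of hindbrain patterning, were over 100 kb away. Above the cluster the next APOC2 peak was at CALCOCO2, an autophagy receptor gene, 102 kb away, with 26 fragments and a fold enrichment of 3.52. It covered bases 25 to 275 after the start of CALCOCO2.

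The HOXA cluster (chromosome 7, 27100354 to 27200091) held no peak of either library. The nearest peaks were at the boundary shared by TAX1BP1, another autophagy receptor, and TAX1BP1-AS1. There the vector peak had a pileup of 28.7 and a fold enrichment of 6.18, and the APOC2 peak 41 fragments and 6.01. From HOXA13, the gene of the distal limb and genital tract, this was 540 kb in either library, and from HOXA2, a hindbrain and ear gene, it was 637 kb. The remaining 8 genes, among them HOXA9 and HOXA10 (known from leukaemia and uterine development), lay between these distances. On the lower side the next APOC2 peak was 701 kb away and the next vector peak 18838 kb.

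**Figure D3:**
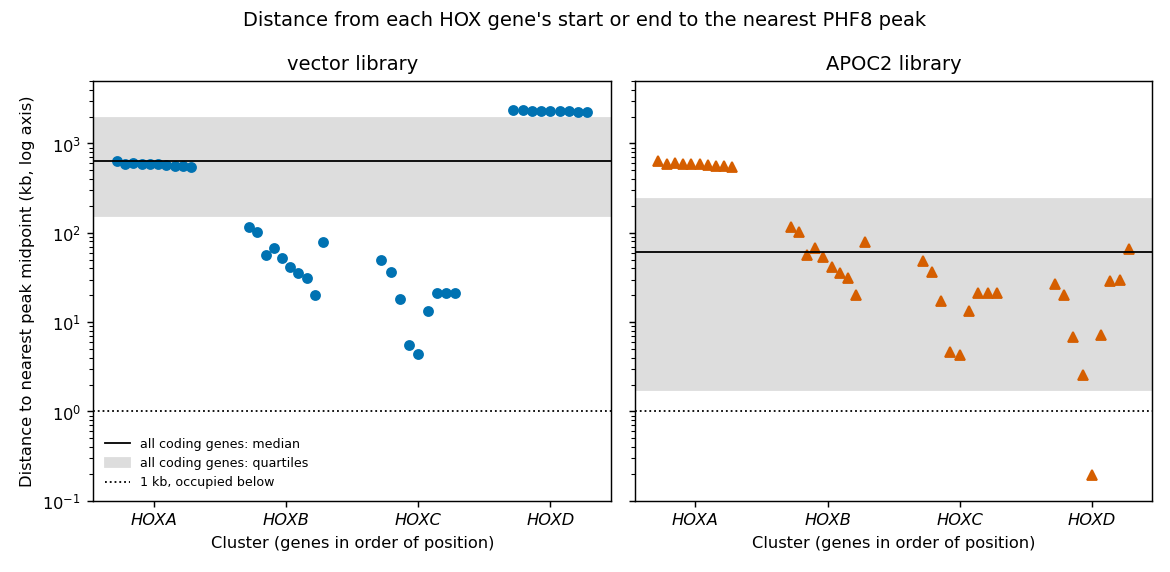
Distance in kb (log axis) from the nearer of the start and end of each HOX gene to the nearest PHF8 peak midpoint, by cluster, in the vector (left) and APOC2 (right) libraries. The line and grey band give the median and quartiles of all protein-coding genes. HOXA genes sit between 540 and 637 kb in both libraries, HOXD genes fall from 2260.1 kb or more to between 0.196 and 66.1 kb, and the HOXB and HOXC points are nearly the same in both.

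Measured as a distance and pooled over the clusters, the HOX genes had lower medians than all protein-coding genes. Their median distance to the nearest midpoint was 328 kb (vector) and 38.8 kb (APOC2), against 636 and 60.3 kb for all protein-coding genes. The genes of a cluster share their nearest peak, so these medians describe 4 loci. They also mix near and remote clusters. The upper quartile of all protein-coding genes was 1913 kb (vector) and 237 kb (APOC2). All HOXD genes in the vector library (2260.1 kb or more) and all HOXA genes in the APOC2 library (540 to 637 kb) lay beyond it. By cluster, the vector medians were 585 kb for HOXA, 54.3 kb for HOXB, 21.1 kb for HOXC and 2326 kb for HOXD. The APOC2 medians were 586, 54.7, 21.1 and 20.03 kb. The HOXD cluster thus changed most between the tables, by the single peak at HOXD9, and the other 3 clusters hardly changed. By paralogue group, 0 of 7 genes of groups 1 to 3, 0 of 15 of groups 4 to 8 and 1 of 16 of groups 9 to 13 were occupied in the APOC2 library. The share of all protein-coding genes there was 23.8%. The single call was HOXD9, so these counts show no pattern along the clusters.

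**Figure D4:**
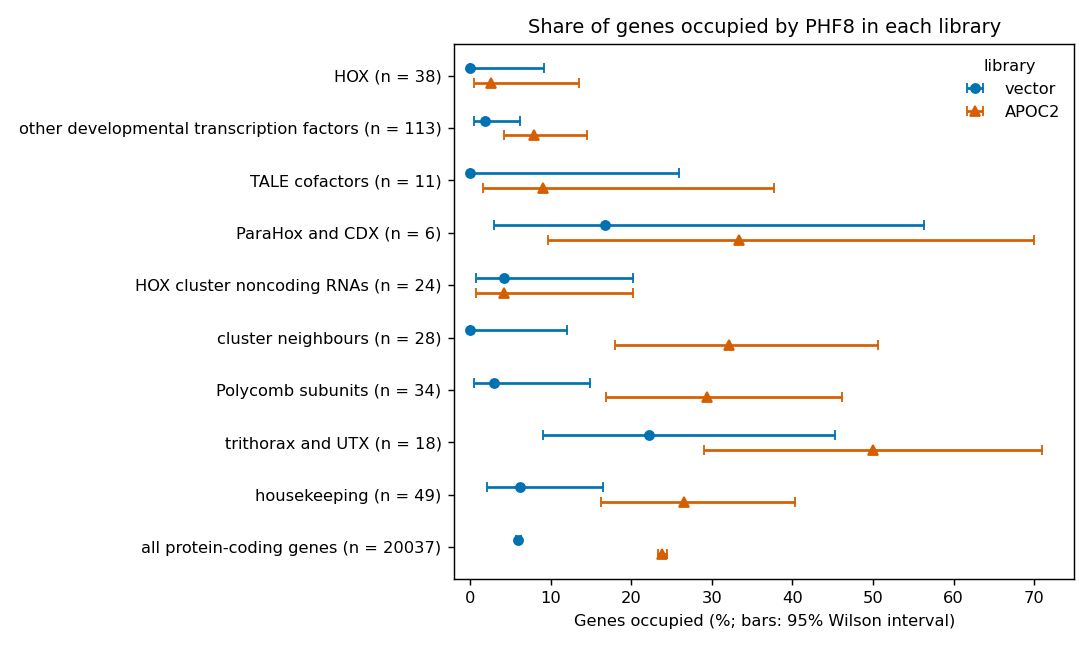
Share of genes occupied by PHF8 in the vector (circles) and APOC2 (triangles) libraries for the HOX genes and other gene lists, with 95% Wilson intervals and the number of genes matched. The HOX genes stand at 0% and 2.63%, the other developmental transcription factors at 1.77% and 7.96%, and the housekeeping genes at 6.12% and 26.5%.

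The HOX count was set beside lists of related genes by the same rule. Over all protein-coding genes the share was 5.95% with vector and 23.8% with APOC2. Of 113 other developmental transcription factors, many of them Polycomb targets as well, 2 were occupied with vector and 9 with APOC2 (7.96%, 4.25 to 14.4%), an interval that overlapped that of the HOX genes. The 2 in the vector library were PITX1 and MNX1, homeobox genes of hindlimb and motor neuron development. Fold enrichment at PITX1 was 6.44 (vector) and 6.58 (APOC2). At MNX1 it was 6.76 and 5.37 at 2 vector peaks and 7.18 at 1 APOC2 peak. Of 49 housekeeping genes, 3 and 13 were occupied (26.5%, 16.2 to 40.3%), close to the share of all protein-coding genes and above the interval of the HOX genes. Those occupied in the vector library were CYC1 and ATP5F1B of the respiratory chain and ATP synthase, and SNRPD3 of the spliceosome. Among 28 protein-coding genes from the surroundings of the clusters, none (0) was occupied with vector (0 to 12.1%) and 9 were with APOC2 (32.1%, 17.9 to 50.7%). Both intervals hold the share of all protein-coding genes, so these neighbours could not be told apart from other genes. The highest fold enrichments there were at 1 peak shared by CBX5, a heterochromatin protein, and HNRNPA1, an RNA-binding protein (10.1), and at LNPK.

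Of 24 listed noncoding RNA and microRNA genes of the clusters, 1 (HOXC-AS2) was occupied in each library. LINC03057, a noncoding RNA gene in the HOXB cluster that the list did not hold, was occupied in both libraries as well, with midpoints 512.5 bp (vector) and 154.5 bp (APOC2) from one of its ends, and is named after its values had been seen. HOTAIR, HOTTIP, MIR10A, MIR10B, MIR196A1, MIR196A2 and MIR196B were not occupied. For the lists that follow, the share over all protein-coding genes is 5.95% with vector and 23.8% with APOC2. Of the TALE homeodomain proteins, which bind DNA together with HOX proteins, 0 of 11 were occupied with vector and 1 of 11 (PKNOX1) with APOC2 (9.09%, 1.62 to 37.7%). Of 6 ParaHox and CDX genes, evolutionary sisters of the HOX clusters, 1 was occupied with vector and 2 with APOC2 (33.3%, 9.68 to 70.0%). CDX2 was occupied in both libraries, with fold enrichment 3.96 (vector) and 3.59 (APOC2). CDX2 encodes a factor of intestinal identity that also acts on HOX genes. PDX1 was occupied in the APOC2 library as well, and is named after its value had been seen. Of 34 genes for Polycomb subunits, which silence HOX clusters, 1 was occupied with vector (2.94%, 0.521 to 14.9%) and 10 with APOC2 (29.4%, 16.8 to 46.2%), and both intervals hold the share of all protein-coding genes. The former was RBBP4, a histone-binding subunit, with fold enrichment 5.61 (vector) and 9.94 (APOC2). The list of trithorax proteins and the demethylase UTX, which oppose Polycomb there, held 18 genes. Of these, 4 were occupied with vector (22.2%, 9.001 to 45.2%) and 9 with APOC2 (50%, 29.03 to 71.0%). The APOC2 interval lies above the share of all protein-coding genes, and the vector interval does so with CXXC1 counted. Those occupied with vector were RBBP5, WDR5, CXXC1 and NCOA6. The vector peak counted for CXXC1 ran from 50281245 to 50281469, outside the gene, whose lower end is at 50282347. This call lay near the edge of the 1 kb window. The vector count and its interval include it, and the interval without it was not computed. No difference from all protein-coding genes is therefore drawn from the vector count.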

How the data were processed

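The material was 1 PHF8 ChIP-seq peak table for each of 2 libraries of RKO cells, 4015 peaks for vector and 8928 for APOC2. The labels name Bowtie2 2.2.9, MACS2 2.0, HOMER and hg38, per the submitters' processing notes. The control library and thresholds are not given in the sources used here, and the total depth of the libraries is unknown. Per the file headers, the deposited columns hold the summit pileup, a signal in fragments, and the fold enrichment, a ratio to local background. The deposited columns of -log10 p and -log10 q had lost their names and were recognised from their place and values: a Poisson tail recomputed from pileup and background gave -log10 p within 0.1 for 99.7% of vector and 99.9% of APOC2 peaks. All vector pileups were whole multiples of 0.98953. The APOC2 backgrounds above 1.5 fell on a step of 0.8325 in 64.1% of cases. Given a common control, the relative depth of APOC2 to vector was 0.824.

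Gene positions came from RefSeq (GRCh38.p14). The deposited coordinates are in hg38 and were not converted. Peaks were joined to genes by midpoint within 1 kb of a start or end with Python 3.11.15, pandas 2.3.3 and scipy 1.17.1, and the search was tested on simulated data. Clusters ran between the outermost listed genes, and any overlap of 1 bp counted as inside. Strand and start sites came from a promoter table that held 20 of the 38 genes. A peak list shows where signal passed the caller's threshold, so a gene without a peak is not shown to lack PHF8. No test was run between libraries. Each list gives all genes occupied in the vector library, otherwise those of highest APOC2 fold enrichment. The members and lists were chosen with earlier results of these data known. Alternatives covered the window, the part of the peak, the gene end, thresholds, ranks, cluster span, overlap and measure.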

Additional observations from a re-analysis of the deposited data

How the results depend on the processing

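Of the recomputed values, 122 stayed within the limits set for them and 29 did not. For shares the limits were the 95% interval, and for numbers of genes or peaks 1.5 times the reported number. For the log2 ratio they had the width of the 95% counting interval of the depth-scaled pileups, set around the reported ratio. Numbers and shares cannot be negative, so only the log2 ratio could have changed sign. The log2 ratio stayed above 0, but 5 of its alternatives rested on the HOXC pair alone, so this says little about stability. Of the 122, 57 were numbers or shares of 0 under a setting counted as stricter, and 65 were not. Gene starts only was counted among the stricter settings. It also used annotated starts inside genes, so its values of 0 were not fixed in advance. The vector library also had 0 occupied HOX genes with a 3 kb window and with the nearest base of the peak within 1 kb. It had 0 of 20 with gene starts only. These settings could have added one. In the APOC2 library the number of occupied HOX genes, all in the HOXD cluster and all in the APOC2 library alone, was 2 with a 3 kb window, HOXD10 being added. It was 0 when the peak had to overlap a start or end, 0 with equal numbers of top-ranked peaks, and 0 of 20 with gene starts only, where HOXD9 had no entry. The HOX share in the APOC2 library was 0% under these 3 settings. The share of all protein-coding genes in the vector and APOC2 libraries was 6.58% and 26.2% with a 3 kb window, 1.45% and 8.55% with direct overlap, and 3.21% and 14.1% with a fold enrichment of at least 5. In the APOC2 library it was also 25.6% with gene starts only, 23.1% with a q-value of at most 0.001 and 12.5% with equal numbers of top-ranked peaks, so it was above the HOX share in each of these. The intervals of the HOX and all-gene shares in the APOC2 library overlapped with direct overlap only (0 to 9.18% against 8.17 to 8.94%), and came close with a fold enrichment of at least 5 (upper HOX bound 13.5%, lower all-gene bound 13.6%). Within the clusters, a fold enrichment of at least 5 left 0 APOC2 peaks in HOXB and 1 in HOXC, and equal numbers of top-ranked peaks left 0 in HOXB, 1 in HOXC and 0 in HOXD. The log2 ratio at the HOXC pair was between 0.28 and 0.76 under the 5 alternatives that changed the measure or asked for 50% overlap. With peaks within 1 kb counted as shared, the HOXB pair (-0.46) joined the HOXC pair (0.57), and the median over these 2 pairs was 0.055. No paired analysis was possible because each group had 1 library. Leaving out replicates could not be done for the same reason.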
